A study of Mus musculus with 10 samples.

Results

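The Hox genes of the 4 mouse clusters were examined in the hippocampus of adult mice whose mothers had been given oestrogen during pregnancy. Members were all non-control probes whose gene name in the scanner files begins with Hoxa, Hoxb, Hoxc or Hoxd and a digit: 51 probes for 38 genes, among 41174 non-control probes for 27342 gene names. The mice were adult offspring of ICR dams, an outbred stock, and all were labelled male. In the high estradiol group (HE) the dams had taken estradiol valerate, an ester that is cleaved to estradiol, by mouth in corn oil at 100 µg/kg/day between E5.5 and E11.5 of gestation. In the control group (NC) the dams had taken corn oil alone. RNA from 5 hippocampi per group was labelled with Cy3 and read on 1-colour Agilent arrays, 1 array per sample. The labels name no litters, so the p-values measure the spread between these samples only, and the number of arrays limits the precision.

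Hox genes encode homeodomain transcription factors. In the embryo they are switched on in the order in which they lie along each cluster, the low-numbered genes first and furthest forward, and their activity in the neural tube stops within the hindbrain. They respond to retinoic acid, bind DNA together with Pbx and Meis proteins, and are held silent by Polycomb complexes in tissues in front of that boundary, which include the hippocampus. Genes with the same number in different clusters are called a paralog group.

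The probes, each 60 bases long, lay on mm9 in chromosome 6 (Hoxa, 11 genes, with Hoxa2 to Hoxa13 at 52112595 to 52209074, minus strand), chromosome 11 (Hoxb, 10 genes, 96057368 to 96228510), chromosome 15 (Hoxc, 8 genes, 102758794 to 102866583, plus strand) and chromosome 2 (Hoxd, 9 genes, 74508005 to 74603059, plus strand). The 7 sequences below, 5′ to 3′ as given in the array files, are whole for 2 probes and the first 30 bases for the others. The first 6 belong to probes bright enough to be compared between groups, and the last is an undetected probe of a detected gene.
Hoxa3, chr6:52120410-52120469, minus strand: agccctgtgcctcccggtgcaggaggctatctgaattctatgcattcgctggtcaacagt
Hoxc4, chr15:102866538-102866583, plus strand: ttctttccttctttagccttccttcccttt
Hoxa6, chr6:52158194-52158253, minus strand: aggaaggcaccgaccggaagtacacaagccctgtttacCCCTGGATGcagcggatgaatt
Hoxb6 first probe, chr11:96160281-96160340, plus strand: ggtgctatttgacaattcctgcctctgcca
Hoxb6 second probe, chr11:96162563-96162622, plus strand: tcgagtctcatttcgtccatgtcccccgtg
Hoxa7, chr6:52165626-52165685, minus strand: gacagttggaaaagcgtctttaagagactc
Hoxa3 undetected probe, chr6:52119744-52119803, minus strand: ggtaatgcgtttttatagtttatgtgacgt

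Capitals in the Hoxa6 probe mark CCCTGGATG, codons of the hexapeptide with which many Hox proteins contact Pbx. Those 9 letters occurred in 2 of the 51 Hox probes, Hoxa6 and Hoxd3, and, counting both strands, in 0.0631% of all non-control probes. A Hoxa9 and a Hoxb3 probe shared a run of 22 bases, so the gene behind each of these signals is uncertain. The longest run that any of the other Hox probes shared with a probe of another gene was 16 bases. The Hoxc4 probe is 66.7% pyrimidine, and its coordinates cover 46 of its 60 bases.

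Most Hox probes were not well above background on any array. The array software flags a spot as well above background when it clearly exceeds the local background. By that flag 27 of the 51 probes (52.9%) were detected on none of the 10 arrays, against 16.3% of all non-control probes, and 17 of the 38 genes had no detected probe. A further 13 probes (25.5%, against 4.36% of all) were detected on 1 array alone. Only 4 probes (7.84%, against 65.8% of all) were detected on all 10 arrays. The GC content did not separate these sets: the median was 42.5% for the 4 probes detected on all arrays, 42.5% for the 20 detected on 1 to 9 arrays and 40.0% for the 27 detected on none. By the software's laxer flag, a signal positive and significantly above background, between 16 and 28 of the 51 probes were detected per array, 41 on at least 1 array and 10 on none.

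**Figure D1:**
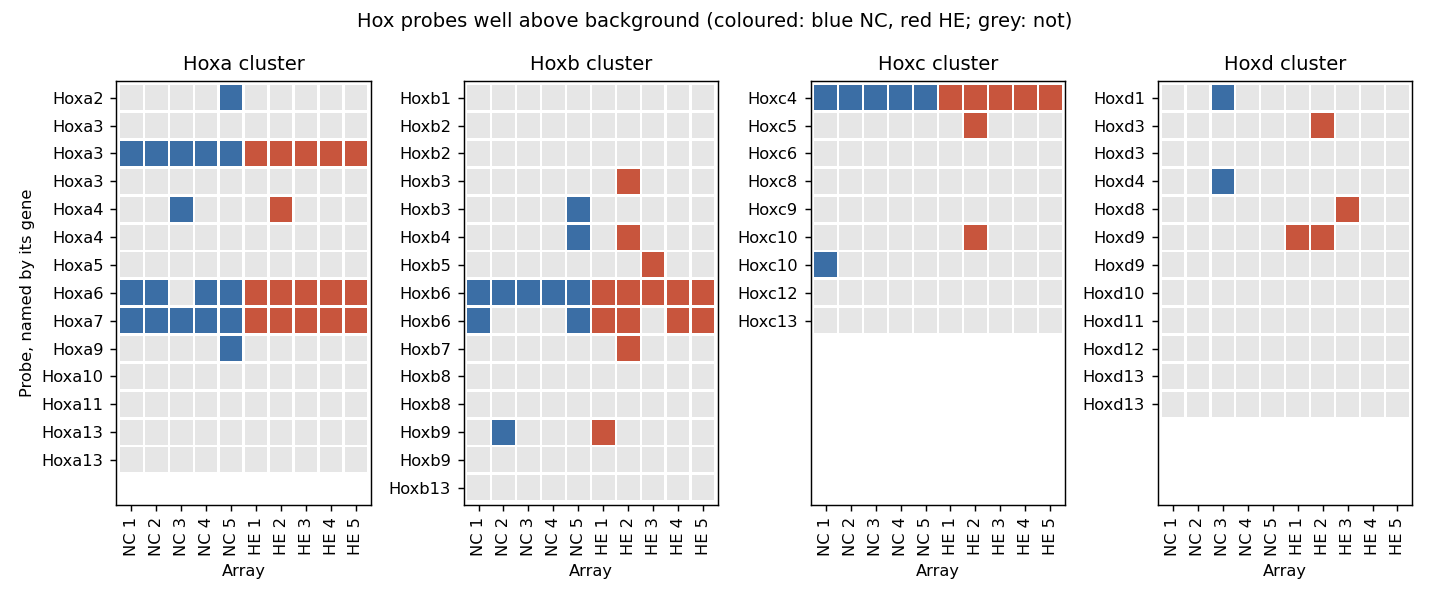
Each row is a Hox probe, for 50 of the 51 probes, named by its gene and ordered by gene number within its cluster, and each column is an array. Coloured cells are well above background (blue NC, red HE) and grey cells are not. Unbroken rows belong to 4 probes, one each for Hoxa3, Hoxa7, Hoxb6 and Hoxc4, and the rows of groups 11 to 13 are grey throughout.

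By the well above background flag, probes of low-numbered genes were detected more often than those of the highest-numbered genes. Of the 18 probes for paralog groups 1 to 4, whose genes are active furthest forward in the embryo, 11 were detected on at least 1 array. Of the 13 probes for groups 5 to 8, 8 were. Of the 20 probes for groups 9 to 13, whose genes act in the trunk, limbs and tail, 5 were, and all 5 belonged to groups 9 and 10. None of the 10 probes for groups 11, 12 and 13, the most posterior genes, was well above background on any array. By the laxer flag this order did not hold throughout. The Hoxd12 probe was then detected on 4 NC and 5 HE arrays, and a Hoxd13 probe on none. The Hoxb1 probe was detected on none, and a Hoxa3 probe on 5 NC and 5 HE arrays. Of the 24 probes detected at least once by the stricter flag, 13 were detected on 1 array. By cluster, 7 of 15 Hoxa probes, 8 of 15 Hoxb probes, 4 of 9 Hoxc probes and 5 of 12 Hoxd probes were detected at least once, and the Hoxd cluster was the one without a probe on all 10 arrays.

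Of the 12 genes with several probes, 4 (Hoxa13, Hoxb2, Hoxb8 and Hoxd13) had no probe detected on any array. Of the 8 with a detected probe, Hoxb6 was the one with all its probes detected on the same arrays, on 6 of them. Of the 3 Hoxa3 probes, one was detected on all 10 arrays, while the undetected probe shown above, whose start lies 666 bp away, and another were detected on none. For Hoxc10, a gene of limb and lumbar motor neuron patterning, one probe was detected on NC 1 alone and the other on HE 2 alone. The 2 Hoxb3 probes were likewise detected on different arrays, NC 5 and HE 2.

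Most arrays detected 6 to 8 Hox probes, and NC 5 and HE 2 detected more. The number of Hox probes well above background was 7, 7, 7, 6 and 11 on NC 1 to NC 5, and 8, 14, 7, 6 and 7 on HE 1 to HE 5. The groups overlapped. Over all probes, 70.3% to 78.8% were well above background, with HE 2 the highest. The arrays lay on 3 slides, slide 1 with NC 1 to NC 4, slide 2 with NC 5, HE 1 and HE 2, and slide 3 with HE 3 to HE 5, so that NC 5 and HE 2 shared a slide.

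**Figure D2:**
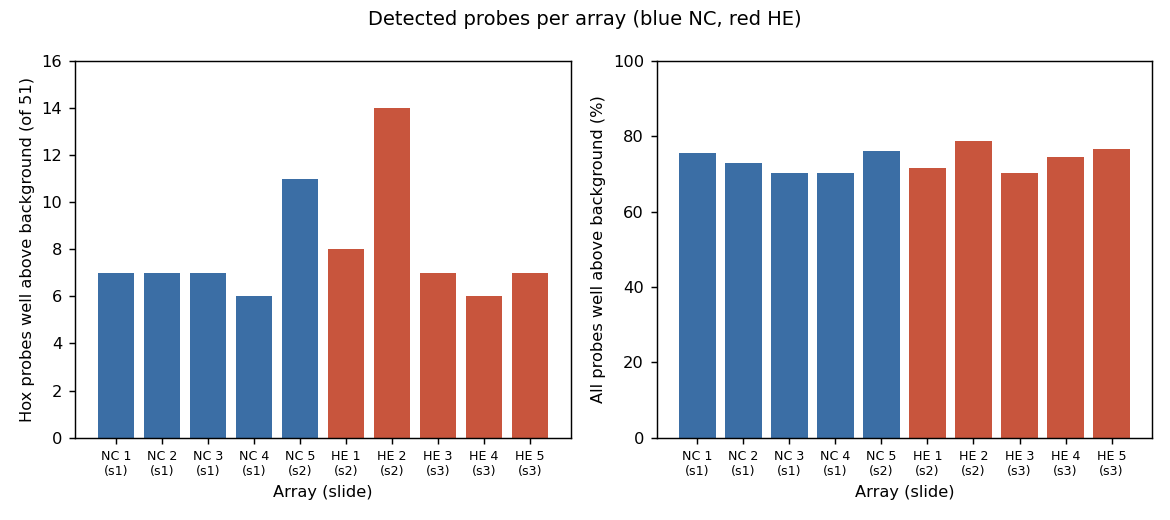
Bars give, per array (slide number in brackets), the number of the 51 Hox probes well above background on the left and the percentage of all non-control probes well above background on the right. NC 5 with 11 and HE 2 with 14 Hox probes stand above the other arrays, which have 6 to 8.

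Facts of the whole series bear on what follows. The 75th percentile of the signal ran from 899.4 to 1288.8 between arrays. All 12 markers of hippocampal neurons were detected, each on 3 or more arrays. Xist was high (3.20 to 4.44, log2 relative to the 75th percentile) and Ddx3y at -9.32 to -5.54 on NC 1, 2, 3 and 4 and HE 1, 2 and 3, against the male label of these 7 arrays, while NC 5, HE 4 and HE 5 had Ddx3y at 1.08 to 1.38. Signals of 14 thalamic and habenular markers, summed per array as multiples of the 75th percentile, ran from 44.3 to 101.3 in NC and from 12.4 to 33.5 in HE, without overlap, and 11 of the 14 fell in HE. Midbrain and dopamine markers ran from 1.67 to 44.03 in NC, highest on NC 2 and NC 4, and from 1.29 to 1.5 in HE, and 7 of 10 fell. Of 9 liver genes 4 fell. Alb was at 0.50, 0.44 and -0.23 on NC 1, NC 2 and NC 4. It was at -7.93 on NC 3, -4.82 on NC 5 and -8.77 to -5.70 in HE. Ahsg, Fgg and Fgb were likewise highest on NC 1, NC 2 and NC 4, while Ttr was highest on NC 3. A fit below leaves out NC 1, NC 2 and NC 4 together because of these liver signals. Of 9 blood markers tested 1 fell, with sums of 29.1 to 107.8 in NC and 19.3 to 36.7 in HE, and of 12 hippocampal markers 3 rose. The part of these differences in the Hox results was not tested, except where a fit below includes them. In bulk tissue, fewer cells of a type and less RNA per cell cannot be told apart.

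Signals are given as log2 relative to each array's 75th percentile and were tested between HE and NC with limma over 20065 genes, after Benjamini-Hochberg adjustment at 0.05. Only probes flagged well above background on 3 or more arrays of either group were tested. Over all genes 4030 were called, 20.1%: 13.3% were lower and 6.82% higher in HE. With quantile normalization the split was 2399 lower and 1900 higher, and with normexp background correction it was 7092 lower and 1787 higher. Normexp moved the median over all genes to -0.29, so its values below are those centred on the median gene. Centred, the split was 5593 lower and 3269 higher. Of the Hox genes 6 had an entering probe and 32 had none. Of these 6, 1 was lower in HE and none was higher, beside the 13.3% and 6.82% of all genes, and at an unadjusted p under 0.05 there were 2 lower and 0 higher. The count was 0 with slide as a fixed block (beside 185 of all 20065 genes) and without NC 1, NC 2 and NC 4 together (beside 1918). It was also 0 with probes well above background on all 5 arrays of a group (beside 4115 of 18728). That filter left 5 Hox genes to test, and the called gene was not among them. Each of these fits had 1 lower at an unadjusted p under 0.05 by limma. The Hox count was 2 without HE 5 (beside 2735 of all genes) and 2 with normexp (beside 8862). It was 3 of 38 with no filter on dim probes (beside 3319 of 27342). The median log2 difference was -0.04 over the 6 Hox genes and also -0.04 over all genes tested. That match did not hold in other fits. The medians were 0.20 and 0.01 with quantile normalization, and -0.93 and -0.29 with normexp before centring.

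Dim probes had a floor that differed between the groups. For a spot that it does not separate from background the software writes a surrogate value, and per array 23 to 35 of the 51 Hox probes held one. The median surrogate lay at -8.57, -8.30, -8.17, -8.30 and -8.52 on NC 1 to NC 5 and at -8.47, -9.32, -8.66, -8.88 and -9.29 on HE 1 to HE 5. It was lower on HE 2 to HE 5 than on every NC array, and HE 1 lay among the NC arrays. The median Hox probe lay at -8.22 to -7.81 in NC and -8.86 to -8.27 in HE, and it is in part a median of those surrogates. The part of this shift in differences of dim Hox probes was not tested.

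Listed markers of hindbrain and spinal cord neurons were near the floor in part. Of 20 markers of hindbrain and spinal cord neurons, 15 were detected on 3 or more arrays, and Mnx1, Tlx3 and Atoh1 on none. Their summed signal was 1.99, 5.35, 1.51, 1.23 and 3.67 on NC 1 to NC 5, and 1.99, 1.59, 2.91, 1.31 and 1.93 on HE 1 to HE 5. The groups overlapped, with NC 2 and NC 5 the highest. The sum rests mainly on a few bright markers. The highest on NC 2 were Slc6a4 (log2 1.01) and Tph2 (0.31), and on HE 3 Slc5a7 (0.39). Whether these markers are particular to tissue with active Hox genes was not tested. Of the 14 markers tested, 1 fell and none rose. Their part in the Hox results was not tested.

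Hoxa3, Hoxc4, Hoxa6, Hoxa7 and Hoxb6 had no difference that passed. Hoxa3, which patterns the pharyngeal arches and neck, had signals of -2.27, -2.15, -2.41, -2.41 and -2.25 on NC 1 to NC 5 and -2.15, -2.13, -2.20, -2.25 and -2.30 on HE 1 to HE 5. The groups lay within the same narrow band, and the log2 difference was 0.09 ± 0.08 (SE, limma adjusted p = 0.442). Hoxc4, a gene of the cervical spinal cord that also acts in lymphocytes, was at -3.37, -3.37, -3.86, -3.68 and -2.73 in NC and at -2.99, -2.80, -3.20, -3.26 and -3.56 in HE. NC 5 was the highest array of all for Hoxc4 and NC 3 the lowest, and the difference was 0.24 ± 0.22 (limma adjusted p = 0.446). Both differences turned negative with normexp, and that of Hoxc4 also with slide as a fixed block.

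Hoxa6, which patterns the trunk, was at -6.09, -5.66, -5.72, -4.77 and -5.31 on NC 1 to NC 5 and at -5.54, -5.25, -5.61, -5.79 and -6.20 on HE 1 to HE 5. It was well above background on all arrays except NC 3. The groups overlapped, with a difference of -0.17 ± 0.25 (SE, limma adjusted p = 0.66) that became 0.01 without NC 4, the highest array. With normexp it was -1.16, adjusted p 0.0397, and with quantile normalization 0.18, adjusted p 0.664.

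Hoxa7, also a trunk gene, was at -4.83, -5.16, -5.00, -5.29 and -5.44 in NC and at -4.98, -4.88, -4.74, -5.13 and -4.67 in HE. The groups overlapped, although HE 3 and HE 5 exceeded every NC array. The difference was 0.26 ± 0.14 (SE, limma adjusted p = 0.187), and it turned to -0.94 with normexp.

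Hoxb6, a gene of the trunk and of blood progenitors, was the only one with 2 tested probes, and they differed in level and sign. The NC mean was -0.83 at the first probe and -6.64 at the second, and neither difference between the groups passed. At the first probe, the signals were -0.79, -0.85, -0.95, -0.66 and -0.91 in NC and -1.30, -1.03, -1.49, -1.20 and -0.91 in HE. HE 1 to HE 4 lay below all NC values, and HE 5 lay among the NC arrays. The difference was -0.35 ± 0.12 (SE, limma adjusted p = 0.0596), and without HE 5 it was -0.42 with an adjusted p of 0.0427.

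At the second Hoxb6 probe, which starts 2282 bp further along, the signals were -6.35, -6.76, -6.74, -7.00 and -6.34 in NC and -6.14, -5.87, -6.64, -6.49 and -6.43 in HE. It was well above background on 2 NC and 4 HE arrays, and HE 1 and HE 2 exceeded all NC arrays. The difference was 0.32 with an adjusted p of 0.206 when each probe was tested by itself with limma. The mean of the probes differed by -0.01. The first probe was designed to an Ensembl transcript and the second to the RefSeq transcript of Hoxb6, per the array files.

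**Figure D3:**
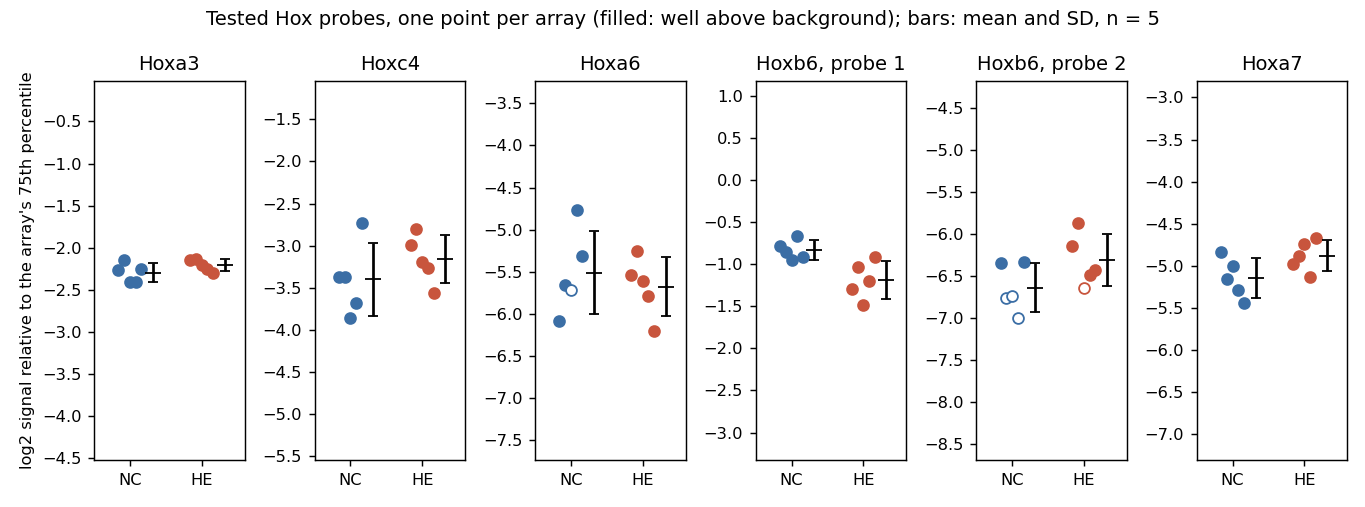
Points are arrays (blue NC, red HE, filled where well above background) for 6 tested Hox probes, on log2 axes of equal length but different position. Bars give the mean and SD of 5 arrays. The groups overlap at each of the 6 probes, and open points occur at Hoxa6 and at the second Hoxb6 probe.

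**Figure D4:**
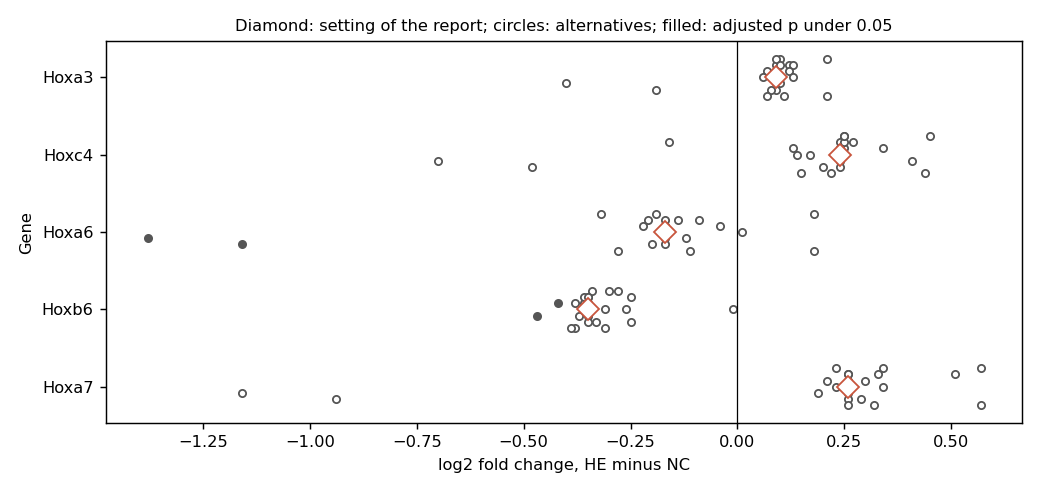
Log2 differences between HE and NC for 5 tested Hox genes, where the diamond is the value reported and circles are the alternative fits, filled where the adjusted p is under 0.05. Hoxa3, Hoxc4, Hoxa6 and Hoxa7 have circles on both sides of 0, and those of Hoxb6 lie below it, the highest at -0.01.

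Among all 51 probes, the arrays of the groups did not overlap at 3, Hoxa2 and Hoxa9 among them, each lower in HE, and at none higher. Over all non-control probes the shares were 8.93% lower and 4.99% higher. Hoxa9, a gene of the trunk and of blood stem cells, was at -7.49, -6.25, -6.86, -7.33 and -5.85 on NC 1 to NC 5 and at -8.01, -7.90, -8.23, -7.91 and -8.08 on HE 1 to HE 5. The HE arrays lay close together (SD 0.14) below the more scattered NC arrays (SD 0.70), and none of the 10 values was a surrogate. The Hoxa9 probe was well above background on NC 5 alone, and its NC mean of -6.76 lay under the lowest detected signal of every NC array (-6.56 to -6.07), so no fold is given.

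Hoxa2, which patterns the second pharyngeal arch and rhombomeres, was at -8.22, -8.44, -8.31, -8.37 and -5.70 in NC and at -8.59, -8.95, -8.78, -9.02 and -9.47 in HE. NC 5 was the array well above background, and 7 of the other 9 values were surrogates. No fold is given for Hoxa2, because its NC mean of -7.81 lay under the lowest detected signals of the HE arrays. With no filter on dim probes, 38 Hox genes were tested and 3 were called lower by limma, Hoxa9 and Hoxd10 among them, beside 8.7% of all genes called lower in that fit. No array detected the Hoxd10 probe, and 9 of its 10 values were surrogates. The median difference of the 38 genes was then -0.37, in the same direction as the shift of the surrogates.

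Of the 24 detected probes, 13 were detected on 1 array, though of the 80 detections on single arrays 40 came from the 4 probes detected throughout. The 13 probes detected on 1 array, each 1 spot per array, comprised 5 on HE 2, 3 on NC 5, 2 on NC 3, 2 on HE 3 and 1 on NC 1. Hoxb5, which acts in the enteric nervous system and neck, was at -3.24 on HE 3, with the other 9 arrays between -9.35 and -7.99. The Hoxc10 probes were at -3.69 on NC 1, with the others between -8.91 and -7.64, and at -4.08 on HE 2, with the others between -9.42 and -8.27. Hoxc5, a cervical cord gene, was at -4.74 on HE 2, against -8.83 to -7.38 elsewhere. These were isolated high spots, with gaps of 2.64 or more to the next array. Each Hoxc10 probe was low where the other was high, at -8.65 on NC 1 and -7.88 on HE 2.

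Smaller single-array signals included Hoxa2 at -5.70 and Hoxb3 at -6.08 on NC 5, with gaps of 2.52 and 2.30 to the next array. The other Hoxb3 probe was at -6.13 on HE 2, Hoxb7 at -6.86 on HE 2 and Hoxd3 at -6.95 on HE 2, with gaps of at most 0.65. The lowest signal well above background was -7.20 on HE 2, against -6.56 to -6.07 on the NC arrays. At Hoxd3, NC 5 was as high as -6.93 and yet not well above background there. Hoxb7 and Hoxd3 on HE 2 thus lay under the lowest detected signal of every NC array.

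In the Hoxd cluster, 3 probes had their highest NC value on NC 3 and their highest HE value on HE 3. Hoxd1, expressed in embryonic sensory neurons, was at -5.28 on NC 3 and -6.92 on HE 3, Hoxd4, a hindbrain and cervical gene, at -5.77 and -7.13, and Hoxd8, a trunk gene, at -5.69 and -5.88. On the other NC arrays they ran from -8.38 to -7.96, from -8.71 to -8.41 and from -8.26 to -7.87. One Hoxa4 probe had the same order, at -5.66 on NC 3 and -6.36 on HE 3. Of each pair, NC 3 alone was well above background at Hoxd1, Hoxd4 and Hoxa4, and HE 3 alone at Hoxd8. HE 5 came close to HE 3 at Hoxd1 (-7.12) and Hoxd4 (-7.58). Hoxd11, undetected, was also highest on NC 3 in NC (-6.09) but on HE 4 in HE (-7.14). These probes were set side by side after their values were seen.

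**Figure D5:**
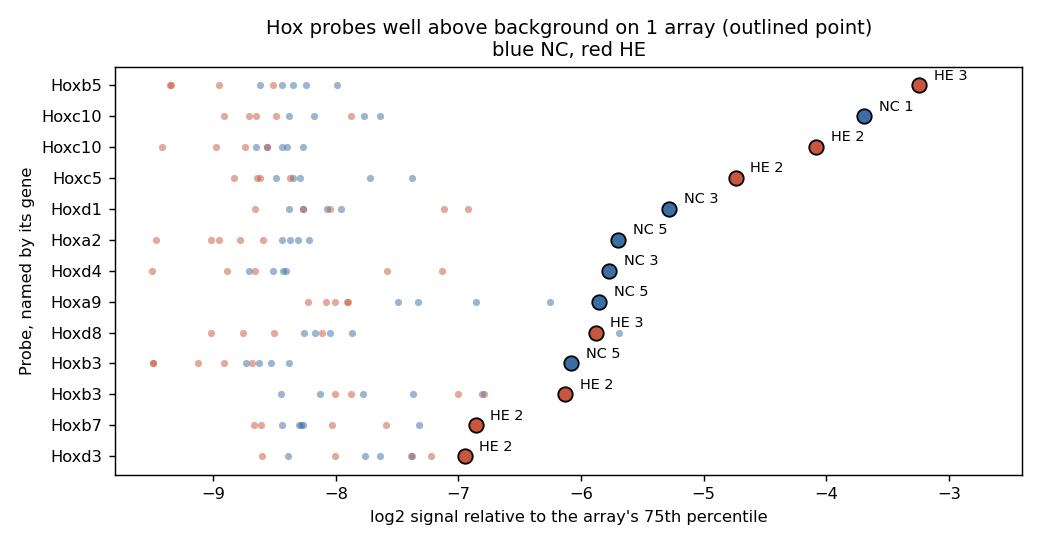
Log2 signals on all 10 arrays for the 13 Hox probes detected on 1 array, which is outlined and named. The first rows show isolated points far to the right of the other 9 arrays, and in the last rows, as well as for Hoxd8, the outlined point lies beside or behind other arrays.

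Probes detected on 2 arrays were those of Hoxa4 (NC 3 and HE 2), Hoxb4 (NC 5 and HE 2), Hoxb9 (NC 2 and HE 1) and Hoxd9 (HE 1 and HE 2). Hoxb9, a gene of the thoracic cord, was at -4.10 on NC 2 and -6.22 on HE 1, with the other arrays at -9.48 to -7.24. Its second probe stayed between -8.08 and -7.12. Hoxd9, a lumbar cord and limb gene, was at -6.01 on HE 1 and -5.66 on HE 2, while NC ran from -7.51 to -6.45 and the remaining HE arrays from -7.35 to -6.66.

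More of the partners and regulators of Hox genes than of the Hox genes could be tested. Of 96 such genes tested in 6 lists, 13 passed by limma, 8 higher and 5 lower in HE, beside 20.1% of all genes. Among 11 Pbx, Meis and other TALE cofactors, 1 rose and none fell (median 0.29): Meis3, a hindbrain cofactor, went from -1.78 ± 0.09 (SD) in NC to -1.39 ± 0.08 in HE, a difference of 0.39 ± 0.08 (SE, adjusted p = 0.0138). With normexp the Meis3 difference was 0.20 (adjusted p = 0.223), and without NC 1, NC 2 and NC 4 its adjusted p was 0.0595. Of 8 upstream regulators, 1 rose and 2 fell (median -0.17). Gdf11, which shifts Hox boundaries in the trunk, fell by 0.44 ± 0.11 (SE, limma adjusted p = 0.0264), and Gbx2 fell by 1.62 ± 0.49 (0.0437). Gbx2 is also one of the thalamic markers above.

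Of 18 genes of retinoic acid metabolism and its receptors, limma called 2 higher and 1 lower (median 0.26), and 1 of the 2, the receptor Rara, has no measured NC level. Aldh1a1, a retinoic acid synthesising enzyme, fell by 1.72 ± 0.45 (SE, limma adjusted p = 0.0271). Cyp26b1, which degrades retinoic acid, rose by 0.80 ± 0.25 (0.0471). Rara passed at 0.0167, but its probe was detected on 0 NC arrays and 3 HE arrays and entered through HE alone. No fold is given for Rara, and its direction turned with normexp.

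Of 27 Polycomb genes, 3 rose and 1 fell (median 0.10): Cbx6 rose by 0.65 ± 0.14 (SE, limma adjusted p = 0.0161), Rbbp7 by 0.38 ± 0.09 (0.0187) and Aebp2 by 0.52 ± 0.14 (0.0292), while Phc3 fell by 0.27 ± 0.07 (0.0341). Of 16 Trithorax genes and H3K27 demethylases, limma called 0 (median 0.05), with 2 higher and 3 lower at an unadjusted p under 0.05. With normexp limma called 5 of them, beside 8862 of all 20065 genes in that fit. Of 16 genes in and beside the clusters, Smug1 rose by 0.60 ± 0.15 (0.0266) and Hibadh fell by 0.31 ± 0.09 (0.0418), with a median of 0.07.

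Meis3, Cbx6 and Rbbp7 passed in all 10 fits without 1 array. Of the other called genes, Rara, undetected in NC, is set aside here, and each of the remaining 9 lost its call in at least 4 of these fits. With slide as a fixed block limma called 0 of the 96 list genes (11 higher and 5 lower at an unadjusted p under 0.05) and 185 of all genes. That block leaves the comparison to slide 2, with NC 5 against HE 1 and HE 2, so lost calls there can reflect lost information. With normexp, Aebp2, Phc3 and Hibadh turned to -0.11, 0.07 and 0.12. With the mean of a gene's probes Phc3 and Smug1 turned to 0.09 and -0.02.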

How the data were processed

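Total RNA of 10 hippocampi was amplified and labelled with a low-input 1-colour kit, per the labels' protocols. The scanned images were read out in version 10.7 of Agilent Feature Extraction, as the submitters' processing notes state. The deposited scanner files hold intensity per spot on a linear scale, background-subtracted and with surrogates near background, per the file headers. The authors also deposited a table of log2 values. How it was made is not given in the sources used here. It followed the quantile-normalized log2 processed signals. The median absolute difference was 0.0042 to 0.0064 per array after each array's median difference was removed, so an offset in level was not measured. The column medians of the deposited table were 7.0291 to 7.0292, so scale and direction are known and no centring was seen. The flags and the surrogate mark are the deposited files' own.

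Here log2 of the processed signal was taken minus log2 of the array's 75th percentile over non-control spots. Spots flagged as non-uniform or outliers were left out (68 to 129 per array, including 1 of a Hoxa3 probe on HE 4), no spot was saturated, and spots of a probe were averaged. Genes were named through the RefSeq table of GRCm38.p6 (27668 probes by accession, 85 by another accession, 5993 by symbol, 7428 under the file's name). Sequences and mm9 coordinates are those of the array files. The entering probe with the highest mean stood for a gene, 30977 probes entered, and limma 3.58.1 in R 4.3.3 (lmFit, eBayes, two-sided) was fitted on all 10 arrays. On simulated data with 20065 genes, log2 changes of 0.5, 1 and 2 were planted in 67, 67 and 66 genes. Of these limma recovered 14.9%, 61.2% and 89.4%, with 5 wrong calls among 115. The simulated noise was normal and had no surrogates, and the real data had 4030 calls, so recovery there can differ.

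Hox genes with a tested probe are named, other Hox genes where detected on at least 1 array, and from each list the called genes with the smallest p, at most 4, except for a few items that are not reported here. Hoxd10, Hoxd11, Hoxd1 beside Hoxd4, Hoxd8 and Hoxa4, and the probes inside the clusters were singled out after their values were seen. Members and lists were chosen with earlier results of these data known. No 2 arrays were duplicates (SD of the log2 difference within groups 0.444 to 0.722). The alternatives were slide or replicate number as a block, normexp (offset 50), quantile normalization, the value table, other filters and ways of joining probes, a trended robust prior, Xist as a covariate, and leaving out arrays.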

Additional observations from a re-analysis of the deposited data

Results flagged for a closer look

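Within each group, the highest and lowest of the 5 arrays were compared with the others by Dixon's ratio (95% critical value 0.71) for the count of detected Hox probes and for the 24 Hox probes detected on at least 1 array. Of the 50 groups of 5 values checked, 14 had an array far from the rest. Chance flags about 1 in 20 groups of ordinary values, but that rate does not apply to these probes, which were chosen for a detection on at least 1 array and lie near the floor on most others.

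The count of detected Hox probes stood apart on NC 5, with 11 against 6 to 7 on the other NC arrays, and on HE 2, with 14 against 6 to 8. In NC, NC 5 was far above the others at Hoxa2 (-5.70), at a Hoxb3 probe (-6.08) and at Hoxb7 (-7.32, not well above background there). NC 3 was far above at Hoxd1 (-5.28), Hoxd4 (-5.77) and Hoxd8 (-5.69), and NC 1 at a Hoxc10 probe (-3.69). In HE, HE 3 was far above at Hoxb5 (-3.24) and Hoxd8 (-5.88), HE 2 at Hoxc5 (-4.74) and the other Hoxc10 probe (-4.08), and HE 1 at a Hoxb9 probe (-6.22). Each of these probe values rests on 1 spot, and the choice of probes favours high values.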

How the results depend on the processing

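Of the 6 tested Hox genes, 1 was called. With slide as a fixed block, with a filter requiring all 5 arrays of a group, or without NC 1, NC 2 and NC 4, limma called 0 (1 lower at an unadjusted p under 0.05 in each). That filter left 5 Hox genes to test, and the called gene was not among them. Normexp called 3, normexp centred on the median gene 2, no filter 3 of 38 genes, and leaving out each array 1 to 2. The median of the tested Hox genes moved to -0.93 with normexp, -0.71 centred, 0.20 with quantile normalization and with the value table. It was -0.37 over the 38 genes with no filter. Detected probes per array averaged 8, and 22.7 by the laxer flag. The partner and regulator lists had 13 calls, and 0 with the slide block (16 at an unadjusted p under 0.05 by limma, 11 higher and 5 lower), 21 with normexp (8 higher), 31 centred (23 higher), 28 with probes tested singly, 8 without NC 1, NC 2 and NC 4, and 4 to 16 without each array, the fewest without NC 2. All genes had 185 calls with the slide block, 8879 with normexp, 8862 centred (3269 higher, 5593 lower), 7109 probes singly, 1918 without NC 1, NC 2 and NC 4, and 1923 to 4176 without each array, the fewest again without NC 2. Directions turned with normexp for Hoxc4 (-0.70), Hoxa7 (-1.16), Hoxa3 (-0.40), Meis3 (-0.02), Rara (-1.35) and Aebp2 (-0.33). Centred, they turned for Hoxc4 (-0.48), Hoxa7 (-0.94), Hoxa3 (-0.19), Rara (-1.13), Aebp2 (-0.11), Phc3 (0.07) and Hibadh (0.12). They turned for Hoxa6 with quantile normalization and the value table (0.18 each) and without NC 4 (0.01, with -0.32 to 0.01 over the fits without 1 array), for Hoxc4 with the slide block (-0.16), and for Phc3 (0.09) and Smug1 (-0.02) with the mean of probes. The cause was not tested. Replicate numbers did not pair the arrays (correlations of same-numbered arrays -0.077 to 0.127, 4 of 10 arrays closest to their own number). With the replicate block limma called 2976 genes, 1 Hox gene and 9 list genes. The slide block rests on slide 2 alone, with NC 5 against HE 1 and HE 2. Dim signal limits most Hox values: 32 of 38 genes had no tested probe.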

Other observations

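Other transcripts lying within the Hox clusters were dim as well. Of 8 non-Hox probes between the outermost Hox probes of the clusters, taken after the Hox values were seen, none was well above background on more than 1 array. Hoxaas3, an antisense transcript of the Hoxa cluster, was at -8.46 ± 0.17 (SD, n = 5) in NC and -9.05 ± 0.41 in HE, and Hoxd3os1, antisense in the Hoxd cluster, at -8.08 ± 0.42 and -8.86 ± 0.39, on 0 arrays each. Around the Hoxa cluster, the file's 9530018H14Rik probe was detected on 1 HE array.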
